A study of Mus musculus with 16 samples.

Results

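The comparison described here sets mouse embryonic stem (ES) cells given Ptn(TALE)VP64 against cells given EGFP, a fluorescent protein with no DNA-binding part. It covers 8 of the 16 arrays of the series, 4 labelled Ptn VP64 and 4 labelled EGFP, chosen by label alone. A TALE is a designed DNA-binding protein, here aimed at Ptn, and VP64 is a synthetic activator built from copies of a herpesvirus VP16 motif. All groups were E14 cells in medium with serum and LIF, transfected with plasmid by Lipofectamine, sorted for eGFP at 24 h and harvested at 48 h. The other 8 arrays were 4 of Ptn(TALE)DEL and 4 of Ptn(TALE)Delta, 2 further constructs with the same TALE name (the labels do not say what Delta carries). They helped to estimate the spread and are otherwise used where stated. Each group of 4 arrays held 2 biological and 2 technical replicates, and the labels do not say which arrays repeat a sample, so p-values over arrays are too small. A TALE activator expressed from a plasmid varies between cells, and the sort was for eGFP, not for the TALE.

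Pleiotrophin, the product of Ptn, is a secreted heparin-binding growth factor of the midkine family that acts in neural and mesenchymal development. Its receptors include the phosphatase Ptprz1, the kinase Alk and syndecans. ES cells themselves are held undifferentiated by transcription factors such as Pou5f1, Sox2 and Nanog, and they give up this state along routes that lead to trophoblast, endoderm, mesoderm and neural cells.

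The 250 bases before the RefSeq start of Ptn are shown because the construct is named for this gene; the bases that the TALE recognises are not in the sources used here. The window lies at chr6:36810180-36810429 of GRCm38.p6, on the minus strand, and is printed 5′ to 3′ from the RefSeq promoter table. Capitals mark TATAA, 157 to 153 bases before the start, and CCAAT, 81 to 77 bases before it. Both strands were searched, so TTATA, at 158 to 154, counts as TATAA as well and overlaps it.

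Ptn: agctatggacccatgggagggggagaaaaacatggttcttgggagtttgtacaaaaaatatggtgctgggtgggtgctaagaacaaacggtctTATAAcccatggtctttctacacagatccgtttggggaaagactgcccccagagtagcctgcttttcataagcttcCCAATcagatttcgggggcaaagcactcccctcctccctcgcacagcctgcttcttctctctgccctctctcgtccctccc

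TATAA was found on either strand in 22.8% of the 32851 RefSeq windows of this length, and CCAAT in 33.9%. GGGCGG, which 32.7% of windows hold, is not in these letters. The longest run that the windows of the 16 named rises (below) share with this one was 8 to 10 bases, and 18.1% of all windows share a run of 10 or more. A shared run is a description and no evidence of binding.

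Ptn was higher in cells given Ptn(TALE)VP64 on both of its probes and on every array. Values are log2 levels, that is log2 of the processed signal over the array's 75th percentile, so that 0 is a probe as bright as that percentile. On probe A_55_P2164629, before patch correction, the EGFP arrays read -0.68, -1.25, -1.30 and -1.61 and the Ptn_VP64 arrays 2.65, 3.47, 3.67 and 2.61. On probe A_55_P2183404 the EGFP arrays read -3.37, -0.50, -0.10 and -1.85 and the Ptn_VP64 arrays 3.54, 2.83, 3.10 and 3.96. The groups did not overlap on either probe, and all 4 Ptn_VP64 spots of each were well above background, against 3 and 2 of the 4 EGFP spots.

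**Figure D1:**
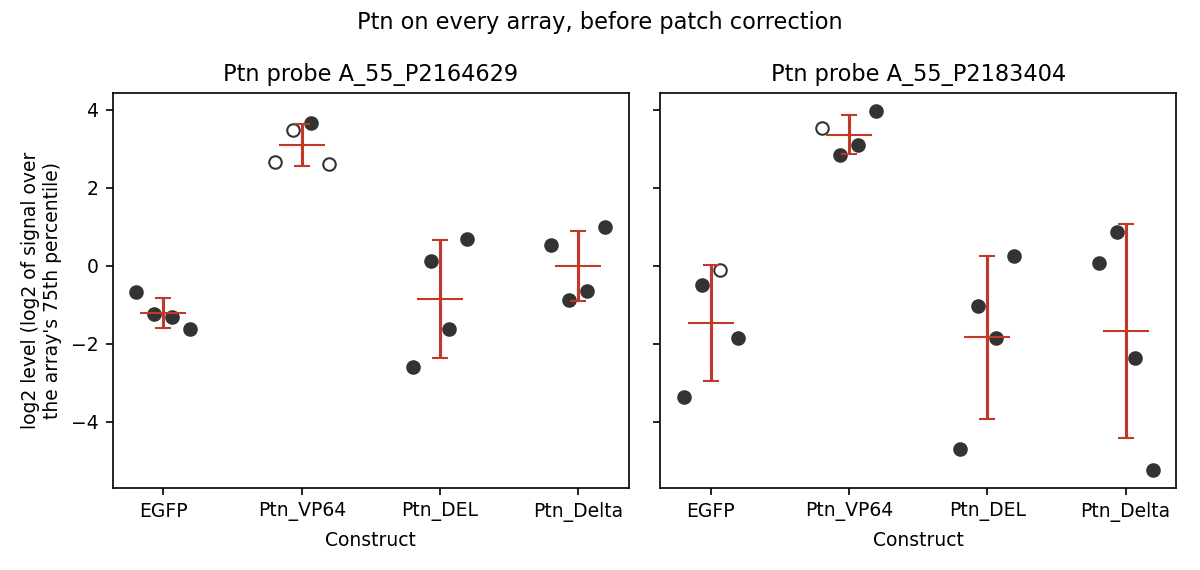
Log2 level of Ptn before patch correction on every array, for both probes, by construct. Circles are arrays (open: spot marked as uneven or as an outlier), and red bars are the mean ± SD of 4 arrays. All Ptn_VP64 spots lie at 2.61 or above and all EGFP spots at -0.10 or below.

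In the fit, which left out marked spots and spots in strong patches, A_55_P2183404 was used: -0.30 and -2.02 on 2 EGFP arrays, and 3.02, 2.60 and 3.31 on 3 Ptn_VP64 arrays. The difference was 4.30 ± 0.81 (standard error), a 19.7-fold higher signal (limma, adjusted p = 0.0405 over all features). The other probe gave 4.85 ± 0.90 (adjusted p = 0.0359) with 1 unmarked Ptn_VP64 spot. Against the mean of Ptn_DEL and Ptn_Delta, whose levels were -1.01 and -0.94, Ptn was 4.12 ± 0.63 higher (adjusted p = 0.0266). The call rests on few values: it was lost without EGFP replicate 2 (adjusted p = 0.0947) or 4 (0.163), or without any Ptn_VP64 array (0.0595 to 0.118), while the difference stayed between 3.83 and 4.79. It did not pass in the test that averages pairs of arrays (adjusted p = 0.679).

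Of 22 genes tested that neighbour Ptn in the RefSeq order, Ptn was called and the others were not, 11 of them higher. Stra8, a regulator of meiotic entry, had a difference of -2.42 ± 0.42 (adjusted p = 0.051) and Cald1, which binds actin and myosin, 2.59. Creb3l2, the neighbour named for its kinship with Creb3, differed by 1.14. Among 13 genes for pleiotrophin, midkine and their receptors, Ptn was the one call. Mdk, the midkine gene, differed by -0.12, Alk by 0.63 and Ptprz1 by 0.64, none of them past the test.

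On the 8 arrays 27.1 to 41.4% of spots were well above background, and the 75th percentile of the signal ran from 209.3 on EGFP replicate 2 to 1253 on Ptn_VP64 replicate 1. EGFP replicate 2 stood apart, with its dim probes at a level of -1.56 against -4.57 to -4.05 on the other EGFP arrays, so weak genes read higher there. Ptn_VP64 replicate 2 stood apart in its group as well, at -3.16 against -5.03 to -4.43. It also had the most marked spots, 16.5%. Replicate 2 had the highest such level within Ptn_DEL (-3.70) and Ptn_Delta (-3.62) too. Between 1.38 and 42.2% of spots lay in patches that departed from their array by more than 1 log2 unit. EGFP always sat in the first array column of a slide and Ptn_VP64 in the second, so that position and construct cannot be told apart. ES cell markers were read on both sides: 8 of 9 were well above background on at least 2 EGFP arrays and 9 of 9 on at least 2 Ptn_VP64 arrays. The exception, Lin28a, had 1 usable EGFP spot, which was well above background. The summed signal of the 9 before patch correction ran from 268.6 to 489 on EGFP arrays, relative to the 75th percentile. On Ptn_VP64 arrays it ran from 149.1 to 362.5.

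Of 17021 features tested (10900 named genes and 6121 unnamed probes), 290 were called, 208 higher and 82 lower, at a limma adjusted p under 0.05. That is 1.7% of features in all, 1.22% higher and 0.482% lower. The median difference of the rises was 1.92 and of the falls -1.65, against -0.05 over all features. Rises began from low levels, at a median EGFP level of -1.80 against 0.19 over all features. Of the 208, 73 had no EGFP array well above background (35.1%, against 12.9% of all features). Falls began at -0.28. These starting levels are a description. The filter on dim probes can admit a feature through its Ptn_VP64 arrays alone, and calls were chosen by a difference that contains the EGFP level. Both choices favour a low start among rises, and their share in it was not tested. The stricter test, which averages arrays in pairs under each of the 3 possible pairings and keeps the largest p, called 1 feature, Il33 (0.00588% of those tested), with 1061 at an unadjusted p under 0.05. In the array-level test, 61 calls (46 higher and 15 lower) held in all 8 fits that leave out 1 array.

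**Figure D2:**
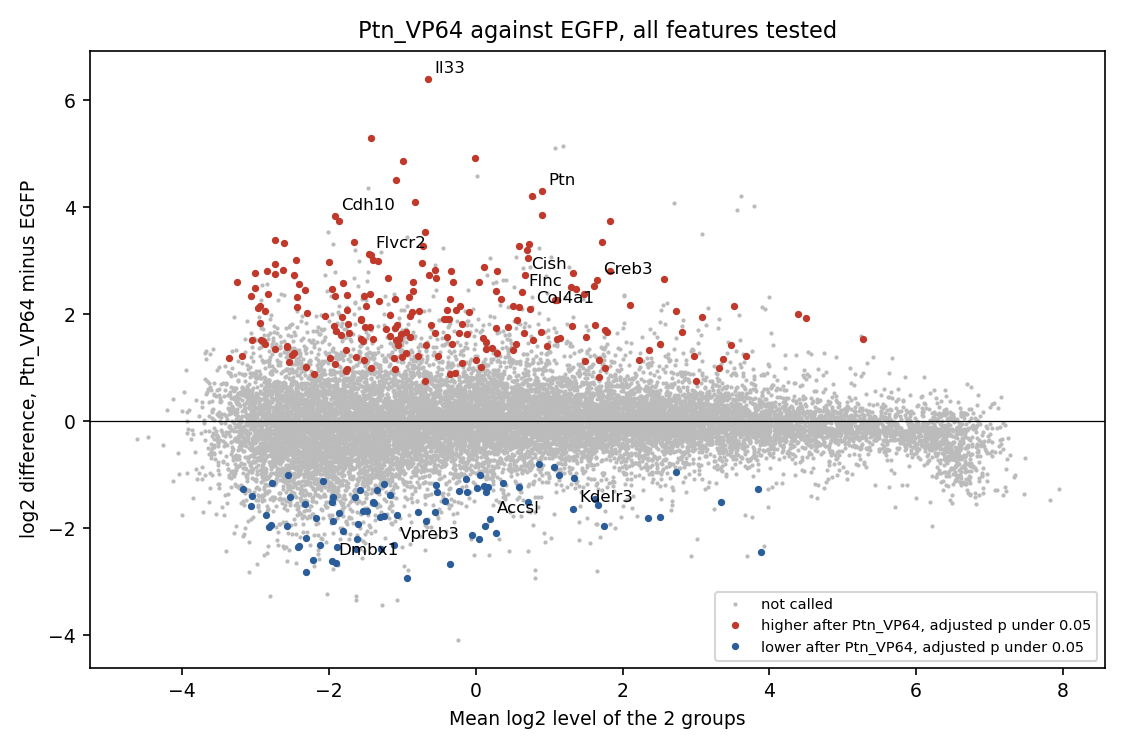
Log2 difference (Ptn_VP64 minus EGFP) against the mean log2 level of the 2 groups for all 17021 features. Red and blue points are the 208 rises and 82 falls, and the rises reach further from 0 than the falls, and 12 genes are named.

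Il33, a cytokine of the interleukin 1 family held in the nucleus, showed the largest rise of all calls. It read -4.15, -3.03, -4.18 and -3.96 on the EGFP arrays, none well above background, and 2.42, 2.51 and 2.67 on the 3 usable Ptn_VP64 arrays. The difference was 6.40 ± 0.30 (adjusted p = 6.77e-07), and at least 38.8-fold. Such a bound sets each dim array at the higher of its own value and its lowest signal well above background. For genes with no EGFP array above background neither the difference nor the bound is a measured size. The bound is not a strict limit either. On EGFP replicate 2 that lowest signal was at -3.16, below the level of its dim probes (-1.56). In the pair-averaged test the adjusted p was 0.0209, but 0.0515 to 0.216 without EGFP replicate 1, 3 or 4 or Ptn_VP64 replicate 1, 3 or 4. Il33 was also 5.48 ± 0.27 above the Ptn_DEL and Ptn_Delta mean.

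Cdh10, a cadherin of the cell surface, read -3.72, -3.63 and -4.16 after EGFP and -0.22, 0.43, -0.41 and 0.20 after Ptn_VP64, a difference of 3.83 ± 0.24 and at least 6.27-fold (adjusted p = 3.12e-05). The groups are far apart, but Cdh10 sat between them after Ptn_DEL (-1.76) and Ptn_Delta (-1.48), so that the gap to those was 1.62 ± 0.20. Creb3, a transcription factor of the endoplasmic reticulum membrane, read 0.29, 0.05, 0.45 and 0.51 against 2.78, 3.24 and 2.92 (2.64 ± 0.21, adjusted p = 0.00034). It too sat between the groups after Ptn_DEL (1.60) and Ptn_Delta (1.44), and the gap to those was 1.44 ± 0.20. Cish, a brake on cytokine and STAT signals, read -1.50, -0.49, -0.48 and -0.35 against 2.02, 1.88 and 2.23 (2.73 ± 0.26). Each of these rises is larger than the spread of its group.

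The other named rises include genes of the cell surface, matrix and cytoskeleton, transporters and a transcription factor. Nbl1, a secreted BMP antagonist, rose by 2.68 ± 0.30 (at least 6.25-fold), and Bmp8b, a BMP ligand, by 2.74 ± 0.36, from -2.36 to -1.60 on the EGFP arrays to -0.18 to 1.58. Col4a1, a chain of basement membrane collagen, read -0.86, 0.07, -0.38 and -0.08 after EGFP and 2.38, 1.09, 2.13 and 1.52 after Ptn_VP64 (2.09 ± 0.27, adjusted p = 0.00296). Flnc, a filamin that crosslinks actin, rose by 2.41 ± 0.25, Ehd2, a protein of caveolae, by 2.35 ± 0.32 (at least 4.78-fold), and Arhgap29 by 1.48 ± 0.19. Arhgap29 has a second probe at 1.03 that did not pass. Kazald1, a secreted protein, rose at least 3.44-fold. Flvcr2, a membrane transporter, rose by 3.13 ± 0.40 (at least 7.39-fold), Slc35g2, a solute carrier, by 2.94 ± 0.38 (at least 2.87-fold), and Samd5 by 3.02 ± 0.40 (at least 3.57-fold). Slc35g2 was well above background on 3 Ptn_VP64 arrays and 1 Ptn_Delta array, and Samd5 on 4 and 1, with no EGFP or Ptn_DEL array for either. Both passed the filter on dim probes only through their Ptn_VP64 arrays, so their place among the rises is a description. Tcf12, a helix-loop-helix factor, rose by 1.33 ± 0.16 and Sowahb by 1.51 ± 0.21. Their second probes, at 1.92 (adjusted p = 0.141) and 1.34 (0.286), did not pass.

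The 10 named falls include transcription factors of muscle, blood and brain. Vpreb3, a partner of the B cell receptor chains, read -0.24, 0.74, -0.12 and -0.23 after EGFP and -2.67, -1.73, -2.63 and -2.08 after Ptn_VP64 (-2.32 ± 0.28, adjusted p = 0.00221). Ebf1, a B cell factor, fell by 1.71 on the log2 scale and Dmbx1, a homeobox factor of the midbrain, by 2.62. Msc, a helix-loop-helix repressor, read 1.36, 1.34 and 1.68 on 3 EGFP arrays and 0.24, -0.27, -0.12 and 0.05 after Ptn_VP64. Fgf17, a growth factor, fell by 1.31, Myh3, the embryonic myosin, by 1.37, and Nlrp4e, an oocyte gene, by 1.51. Kdelr3, which returns proteins to the endoplasmic reticulum, read 2.33, 2.17 and 1.97 against 0.67, 0.41, 0.21 and 0.72 (-1.63 ± 0.22, adjusted p = 0.00514). Accsl fell by 1.82 and Ushbp1 by 1.55. Some falls lay near the background. Ushbp1 was well above it on 1 of 4 EGFP and 1 of 4 Ptn_VP64 arrays, Dmbx1 on 2 of 3 and 1 of 4. Nlrp4e was above it on 2 of 3 and 2 of 4, and Ebf1 on 4 of 4 and 1 of 3. The sizes of these falls are therefore uncertain. The authors' own processed values give smaller differences, by over 1.5 times, for Kdelr3 (-0.45), Nlrp4e (-0.48), Ebf1 (-0.86) and Dmbx1 (-1.36), and among the rises for Tcf12 (0.86). Myh3 has another probe at -0.61 that did not pass.

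In all 26 named genes the groups did not overlap, which held for 20.6% of all features. All 26 kept their call in each fit that left out 1 array, which the rule that chose them fixed. With no patch correction 25 of the 26 lost the call, with only the 8 arrays of both groups 23, on the authors' values 22 and with no filter on dim probes 12. Against the mean of Ptn_DEL and Ptn_Delta all 26 kept their sign and 23 passed (1.03% of all features did); Sowahb (0.71, adjusted p = 0.0966), Dmbx1 (-1.39, 0.106) and Ushbp1 (-0.63, 0.263) did not. All 26 differences from that mean were smaller in size than those from EGFP. For Nbl1 the 2 were 1.67 and 2.68, and for Msc -0.78 and -1.50. Since the genes were chosen by their differences from EGFP and share the Ptn_VP64 arrays, this is a description.

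**Figure D3:**
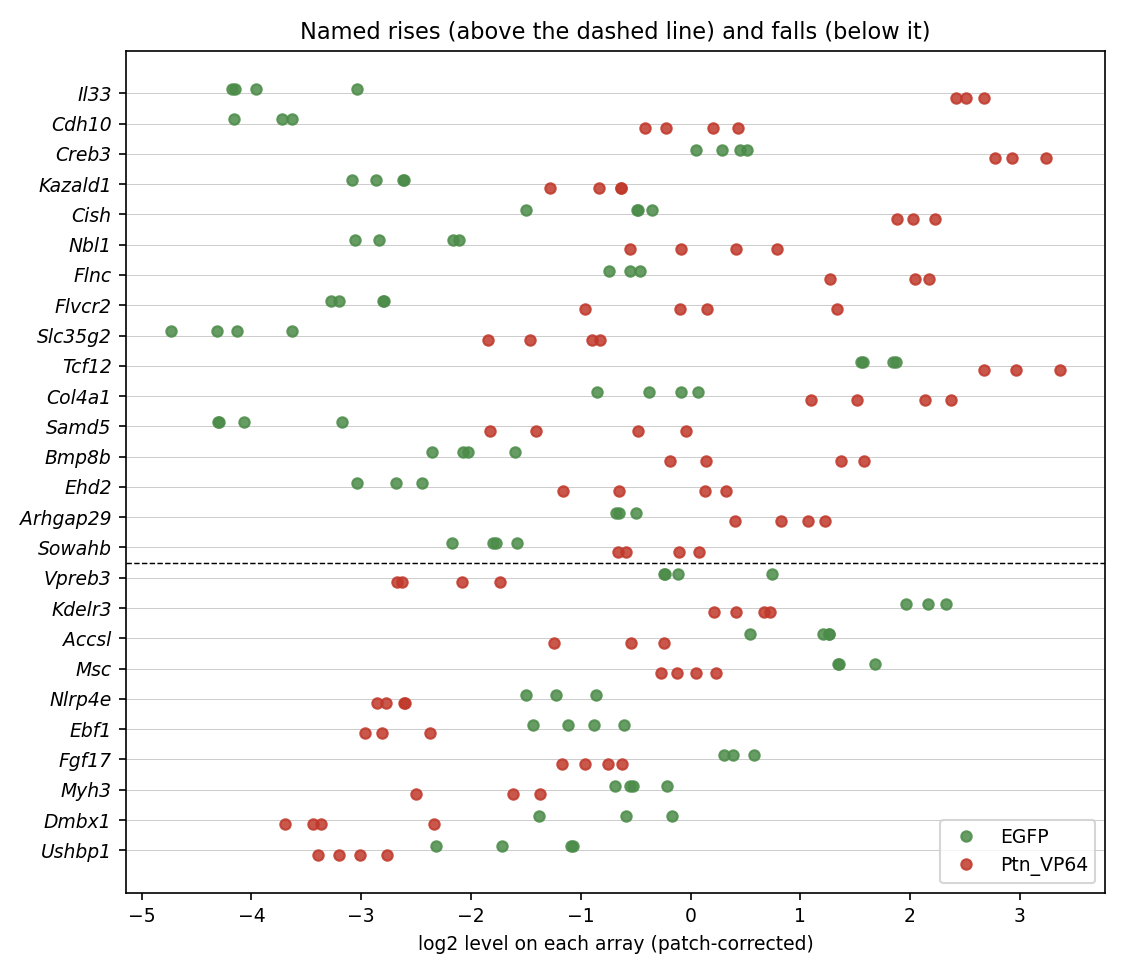
Patch-corrected log2 level of the 16 named rises and 10 named falls on each EGFP array (green) and Ptn_VP64 array (red) with a usable spot. The 2 colours do not overlap in any row; the gap is widest for Il33.

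The gene lists describe which kinds of genes moved; a list's count is read against 1.22% of features called higher and 45.7% of features higher in all. Trophoblast genes, which mark the cell layer that forms the placenta, were higher in 15 of 17 tested (of 23 on the array), with a median of 2.08. In the trophoblast list 3 rose: Bmp8b, the placental homeobox gene Rhox6 (2.88 ± 0.58, adjusted p = 0.0358) and Gata2 (2.08 ± 0.44, adjusted p = 0.0395, at least 2.96-fold). Gata3, a partner of Gata2, differed by 2.92 (adjusted p = 0.121). Among the 14 members detected on 4 or more of the 8 Ptn_DEL and Ptn_Delta arrays, a filter that neither compared group can decide, 12 were higher, with a median of 2.18.

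Contractile actin genes and targets of the factor SRF were higher in 17 of 17 tested, with a median of 1.51. Fhl2, a LIM cofactor of transcription (4.92 ± 0.82, adjusted p = 0.0228), and Myl9, a myosin light chain (2.53 ± 0.46, adjusted p = 0.0263), rose. Targets of YAP and TEAD, which read cell spread and tension, were higher in 11 of 11 tested, with a median of 1.32. Of these, 4 had no EGFP array well above background, and 7 passed the filter on the Ptn_DEL and Ptn_Delta arrays. Lats2, the kinase that restrains YAP, rose (2.96 ± 0.47, adjusted p = 0.0113), and Thbs1, a matrix glycoprotein, was at 4.19 ± 0.95 (adjusted p = 0.0584).

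Simple epithelial keratins and junction genes were higher in 24 of 28, with a median of 1.51, and 7 rose. Anxa2, which links membranes to actin, read 3.44, 3.32 and 3.41 against 5.39, 5.83 and 4.95 (2.00 ± 0.25, adjusted p = 0.0045). Marveld3, a tight junction protein, rose by 3.02 ± 0.45 (at least 6.17-fold) and Emp1, an epithelial membrane protein, by 1.42 ± 0.21. In basement membrane genes 10 of 14 were higher and 3 rose, the collagen chains Col4a1 and Col4a2 (2.05 ± 0.44) and their chaperone Serpinh1 (2.15 ± 0.32).

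Counts of rises in these lists depend on single arrays. When 1 array was left out the trophoblast count ran from 1 to 3, the contractile from 0 to 3, the YAP from 0 to 2, the epithelial from 2 to 8 and the basement membrane from 1 to 3. On slide 1 and slide 2 the medians were 1.60 and 2.78 for trophoblast, 1.23 and 1.51 for contractile and 1.96 and 1.65 for epithelial genes. Against the mean of Ptn_DEL and Ptn_Delta the list medians were lower than against EGFP. They were 1.4 for trophoblast, 1.1 for contractile, 0.6 for YAP, 0.9 for epithelial and 0.2 for basement membrane genes (0.85 against EGFP). Between arrays of the same number the YAP median was -0.89 for replicate 2 and 1.33 to 3.88 for the others. The EGFP and Ptn_VP64 arrays of replicate 2 both read dim probes high for their group. Of 34 list members called other than Ptn and the 26 named genes, 4 kept the call in all 8 such fits: Anxa2, Fzd2, Marveld3 and Nnmt. Ptn did not keep it. Over all features the calls fell to 100 without Ptn_VP64 replicate 3. Markers of other cell types were read beside these. Of 7 trophoblast markers, 0 were well above background on at least 2 EGFP arrays and 3 on at least 2 Ptn_VP64 arrays. Their summed uncorrected signal ran from 1.67 to 9.46 on EGFP and from 2.15 to 25.1 on Ptn_VP64 arrays, relative to the 75th percentile. No usable spot of Elf5 or Tpbpa was well above background. For fibroblasts the counts were 1 and 4 of 8, and the sums 0.906 to 3.35 and 2.06 to 7.13. No usable spot of Dcn, Postn or Pdgfrb was well above background. For primitive endoderm they were 1 and 4 of 6, with sums of 0.965 to 1.95 and 2.36 to 2.54. Among the fibroblast and endoderm markers counted after Ptn_VP64, Thy1 (-0.29 to -1.98) and Gata4 (-2.59 to -2.96) had a lower mean than after EGFP. The others counted had a higher mean. The lowest level well above background was -3.67 to -2.80 on Ptn_VP64 arrays and -3.16 to -2.37 on EGFP arrays. Its part in these counts was not tested. For endothelium they were 1 and 1 of 3, with sums of 1.06 to 4.54 and 0.712 to 1.27. For blood they were 0 and 1 of 3 with a probe (Cd68 had none), with sums of 0.202 to 0.951 and 0.295 to 0.657. The part of these markers in the list results was not tested. Fewer cells of a type and less RNA per cell cannot be told apart in these bulk samples.

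Within every construct, replicates 1 and 3 read higher than replicates 2 and 4 for several of these genes, a pattern noticed in the data. Acta2, smooth muscle actin, read 2.80, -0.13, 2.92 and -0.29 on EGFP replicates 1 to 4, and 5.29, 5.91 and 3.30 on Ptn_VP64 replicates 1, 3 and 4. Ptn_DEL read 3.19, -0.04, 2.84 and 0.57 and Ptn_Delta 3.04, -0.50, 3.35 and 0.25. Of 830 features with a value on all 16 arrays, 48 (5.78%) separated replicates 1 and 3 from 2 and 4 the same way in all 4 constructs, 15 (1.81%) did so for 1 and 2 against 3 and 4, the slides, and 2 for the remaining pairing. A fit with this split as a further term, added after the data were seen, called 582 features, 288 of them among the 290. In it Acta2 was 2.96 ± 0.25 higher after Ptn_VP64, against 3.50 ± 1.24 without the term, and Thbs1 4.19 ± 0.30, against 4.19 ± 0.95. The keratins differed by 2.96 ± 0.43 (Krt8), 3.30 ± 0.28 (Krt18) and 3.07 ± 0.33 (Krt19), and Tagln by 2.41 ± 0.70. These genes were picked for the split, so that their smaller spread in this fit follows from the choice and no test is given. In that fit 8 trophoblast, 7 contractile and 17 epithelial list members passed as higher, where 2.31% of all features did. The split was seen first in genes such as these, and the fit counts each array as a sample. Its 582 calls and these list counts are therefore a description. The labels do not state that replicates 1 and 3 share a sample. In every construct replicates 1 and 3 sat in array row 2 of a slide and replicates 2 and 4 in array row 1. Row position and this split therefore cannot be told apart.

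Calls were also made in lists of signalling and stress genes. In the Wnt list 12 of 22 were higher and 3 rose: Dkk1, a Wnt inhibitor (4.87 ± 0.94, adjusted p = 0.0321, at least 16.3-fold), and the ligands Wnt7b (3.00 ± 0.60, at least 5.42-fold) and Wnt6 (1.97 ± 0.39). Of these 22, 10 had no EGFP array well above background. Among the 16 that passed the filter on the Ptn_DEL and Ptn_Delta arrays, 7 were higher, with a median of -0.05. Of 15 retinoic acid genes 9 were higher and 3 rose: Cyp26a1, which degrades retinoic acid (2.32 ± 0.38), the receptor Nr2f2 (2.97 ± 0.54, at least 4.73-fold) and Dhrs3 (1.60 ± 0.35). Immediate early genes gave Fosl2 (3.54 ± 0.49) and Ier3 (1.70 ± 0.37) as rises, and Egr1 fell by 1.07. Of 13 integrins Itga1 (at least 2.04-fold), Itga3 and Itga8 (at least 2.28-fold) rose and Itgb7 fell by 1.23. In the p53 list Fas, a death receptor (2.13 ± 0.42, at least 2.34-fold), and Perp rose of 23 tested, with a list median of 0.37. When 1 array was left out the rises ran from 0 to 3 in the Wnt, retinoic acid, immediate early and integrin lists and from 0 to 2 in the p53 list.

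Single rises stood in other lists: Cryab, a small heat shock protein (3.34 ± 0.66), Cyp1b1, a cytochrome P450 (4.10 ± 0.53, at least 16.5-fold, 2 Ptn_VP64 arrays), Sox18 (2.16 ± 0.43) and Fzd2, a Wnt receptor (1.79 ± 0.25). Nnmt, which methylates nicotinamide, read -3.99, -3.24, -4.38 and -4.68 after EGFP and 1.12 and 1.31 on 2 Ptn_VP64 arrays (5.29 ± 0.35, adjusted p = 3.78e-05). The bound for Nnmt is 15.9-fold. Pecam1, a surface protein of endothelium and of ES cells, fell by 1.15.

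No member of the naive pluripotency list was called in limma, with 5 of 19 at an unadjusted p under 0.05. Of the 19, 5 were higher, with a median of -0.52; Nr0b1 was at -0.91, Esrrb at -1.20 and Klf4 at 0.01. In the core ES cell list 3 of 9 were higher and none was called (1 at an unadjusted p under 0.05): Pou5f1 was at -1.96 (adjusted p = 0.358) and Sox2 at -0.33. Over all 14 lists without a call, 34 of 228 entries (14.9%) were at an unadjusted p under 0.05, against 14.1% of all features. Nothing was called among TGF-beta and activin targets, mesoderm, neural, interferon, stress of the endoplasmic reticulum, 2-cell-like, germline, cell cycle, transcription machinery, Polycomb or ribosomal genes, or in the fibroblast matrix list, where 10 of 13 were higher with a median of 0.70. A miss does not show that a gene was the same in both groups.

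**Figure D4:**
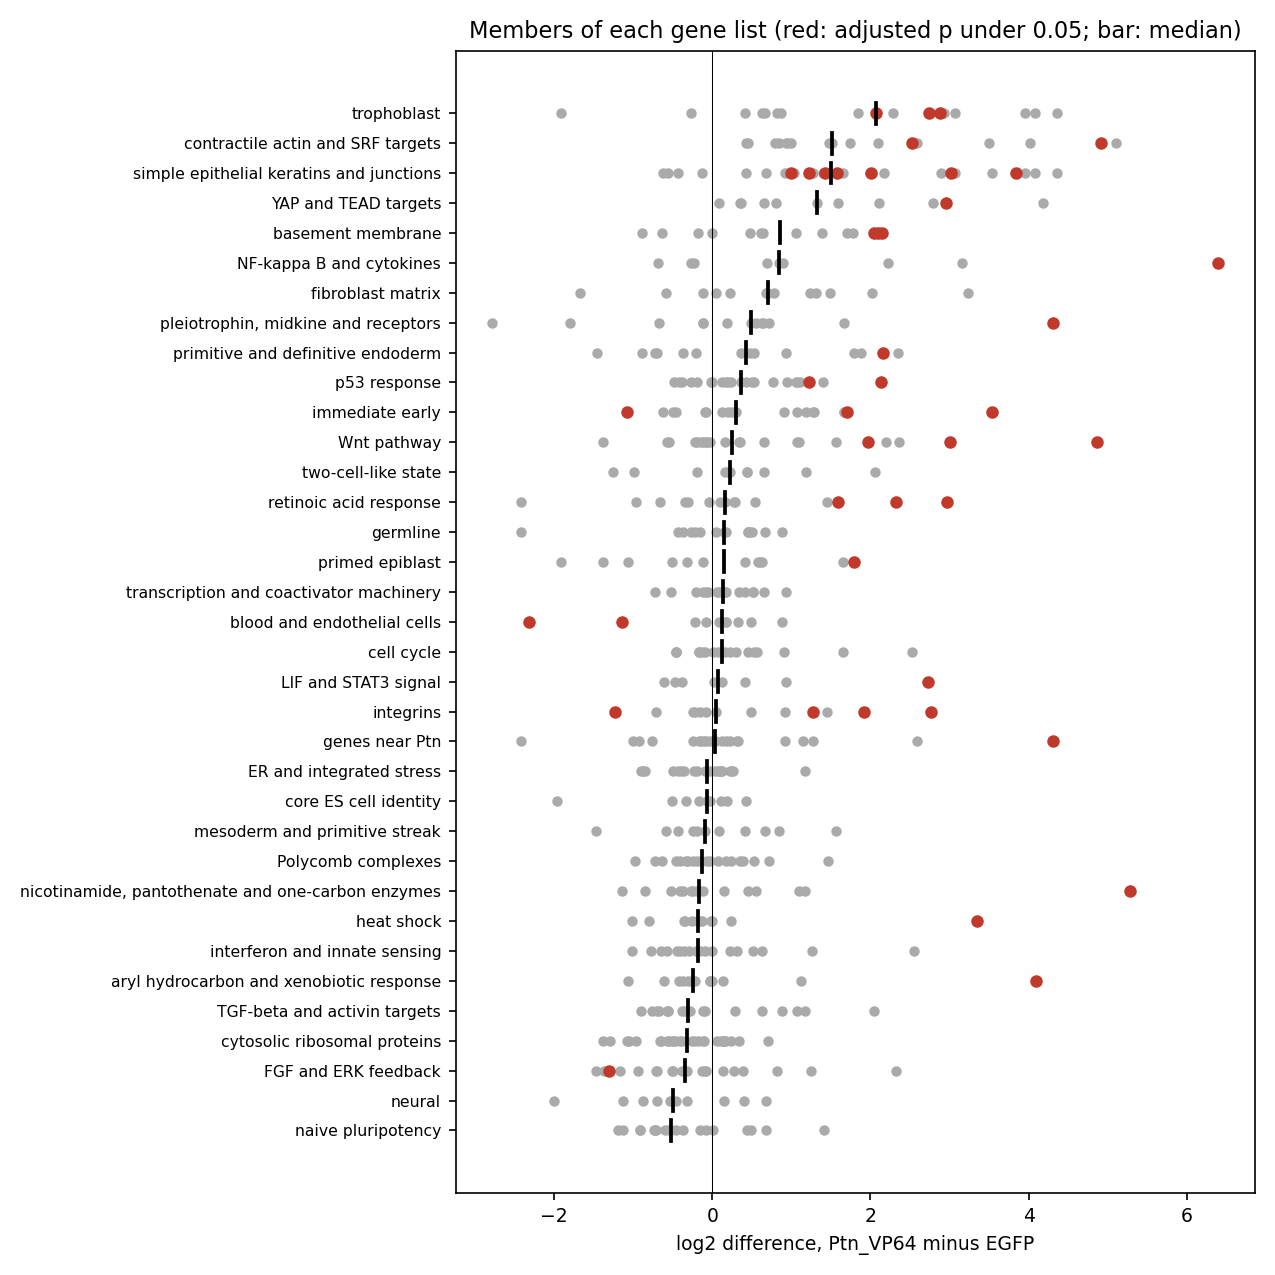
Log2 difference (Ptn_VP64 minus EGFP) of each tested member of 35 gene lists, sorted by median (black bar); red points passed the test. Trophoblast has the highest median, at 2.08, and naive pluripotency the lowest, at -0.52.

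The slides were then read apart. Of 265 called features with a value of both groups on both slides, 265 had the same sign on both, against 62.2% of 13419 features in all. Calls were made on both slides together, so this is a description. Il33 was 6.01 higher on slide 1 and 6.66 on slide 2, Col4a1 2.13 and 2.06, and Ptn 3.32 and 4.97.

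**Figure D5:**
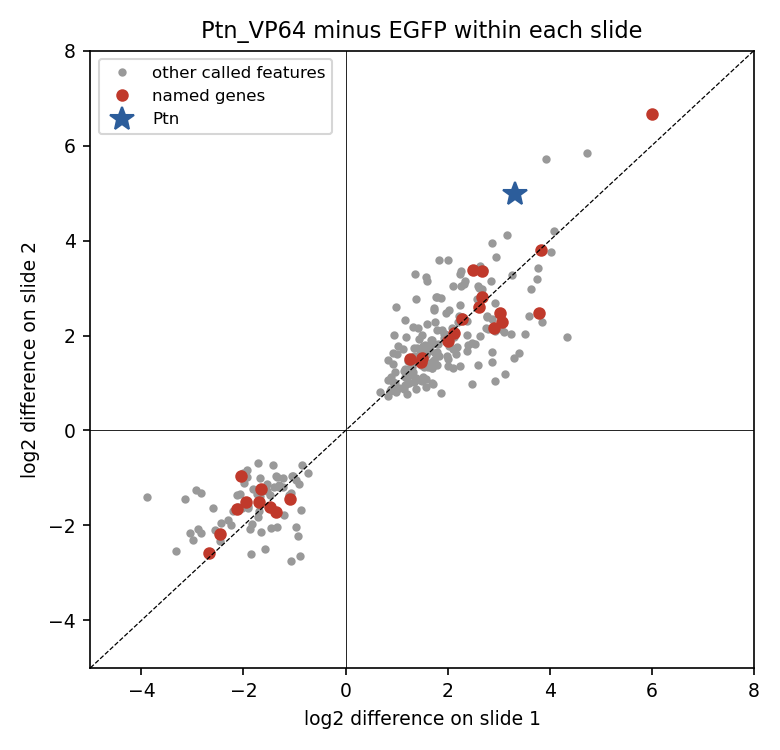
Log2 difference on slide 1 (replicates 1 and 2) against slide 2 (replicates 3 and 4) for called features, with the named genes in red, Ptn as a star and the line of equality dashed. All 265 lie in the upper right or lower left quadrant.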

How the data were processed

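RNA of 16 samples was hybridised to single-colour Agilent arrays (mm9 design annotation). The authors deposited each array's processed signal as intensity, background subtracted by Agilent Feature Extraction 11.5.1.1 per the file headers. The authors also deposited a log2 table of all arrays, quantile normalized, which served as an alternative. Each array had 59305 spots after 3671 controls were left out, for 55681 probes, of which 27656 carried 1 symbol through a RefSeq gene table (GRCm38.p6).

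Levels were log2 signal minus the array's 75th percentile. Marked spots were left out. Patches were corrected by the median shift of bright spots in windows of 21 by 21 spots, without spots over 1 log2 unit away. Probes had to be well above background on 4 of 16 arrays, with 2 arrays per group, and each gene was read by its brightest probe.

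Fits used limma 3.58.1 in R 4.3.3 with slide as a term, on 16 arrays or on averaged pairs, and adjusted p-values (Benjamini-Hochberg) over all features. They were also run on simulated levels without patches or a background floor, to check that known differences were recovered. That run does not test the p-values. Named genes are Ptn, genes called in all pairings, and the 16 rises and 10 falls, with 3 or more arrays per group, whose largest adjusted p over 8 leave-one-out fits is smallest, with up to 3 members per list; further genes named in the text were picked after their values were seen. The comparison, lists and tests were chosen with earlier results of these data known. Replicate numbers were not taken to pair the samples, since 1 of the 4 same-numbered correlations was only 0.05. The number of arrays limits the precision.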

Additional observations from a re-analysis of the deposited data

Results flagged for a closer look

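In 43 groups of 4 array values looked at, 3 held a value far from the other 3; chance alone gives about 1 in 20. Cish on EGFP replicate 1 was at -1.50, against -0.49 to -0.35 on the other EGFP arrays. Vpreb3 on EGFP replicate 2 was at 0.74, against -0.24 to -0.12. Accsl on EGFP replicate 2 was at 0.54, against 1.21 to 1.26. EGFP replicate 2 is the array with the highest background, and its part in these values was not tested.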

How the results depend on the processing

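Directions of called genes held more widely than the calls. No named gene changed sign under any setting that tested it. Of the 26, 22 were tested with 8 arrays above background, 23 with 3 arrays per group, 24 with normexp and 25 or 26 otherwise. The settings reuse the same arrays, and the 26 were chosen by the fits that leave out 1 array, so the kept signs are a description. The 290 array-level calls became 4 with no patch correction, 173 with windows of 41 by 41 spots, 31 (31 higher) on the authors' deposited values, 20 with no filter on dim probes and 3 with only the 8 arrays of both groups. They became 530 with the replicate block (269 shared) and 582 with replicates 1 and 3 against 2 and 4 as a term. Leaving out 1 array gave 100 (without Ptn_VP64 replicate 3) to 279, with 117 without Ptn_VP64 replicate 1. The cause was not tested. Signs agreed for 280 of 290 calls on the authors' values, which come from the same arrays. The share over all features is not given here, so this too is a description.

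The 1 call of the pair-averaged test became 0 with no patch correction, marked spots kept, the authors' values, no filter, a minimum of 8 arrays above background or only 8 arrays, and 2 with normexp (on the median signal) or at least 3 arrays per group; leaving out 1 array gave 0 to 3.

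Ptn lost its call with no patch correction (5.38, adjusted p = 0.307), windows of 41 spots (4.39), no filter (4.30, adjusted p = 0.17), 8 arrays (4.26), no slide term (4.14) and array weights (4.67); without 1 array it ran from 3.83 to 4.79. With the replicate block it was 4.68. Ptn was not tested with a limit of 0.5, normexp, 8 arrays above background or 3 arrays per group, where it had too few values. Same-numbered arrays correlated at 0.27, 0.27, 0.05 and 0.34 in their deviations from the group means, and 6 of 8 arrays correlated best with their own number. Among the rises, 73 had no EGFP array well above background, so the sizes of their differences are not measured ones.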

Other observations

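Unnamed probes were called less often than named genes: 55 of 6121 (0.899%) against 2.16% of named genes. Of these 55, 24 were higher and 31 lower after Ptn_VP64, and 20 are probes that the array design labels by chromosome position. The difference in share was not tested.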
